A study of Drosophila melanogaster with 6 samples.

Results

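The Drosophila genes sticks and stones (sns), hibris (hbs), kin of irre (kirre, also called dumbfounded) and roughest (rst) encode related immunoglobulin adhesion proteins, and the CAP-D3 and IgG ChIP-seq peaks at these 4 genes are described here. A peak was taken when it overlapped the annotated gene span, extended by 1000 bp on both sides, in the Release 6 annotation. The genes were chosen by family, with the large number of peaks at sns already known from the same lists, so the numbers of peaks are a description and no test was run on them. In all, 44 of the 22108 deposited CAP-D3 peaks and 13 of the 3915 IgG peaks belonged to these genes, and the annotation held 17684 genes on chromosomes 2L, 2R, 3L, 3R, 4 and X.

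All chromatin came from S2R+ cells according to the labels, a cell line of embryonic origin from the Oregon R strain, grown in M3 insect medium with serum and digested with micrococcal nuclease. The cells carried no treatment or mutation. The 6 samples were 2 CAP-D3 ChIPs with the rabbit antibody listed as YZ384, 2 ChIPs with normal rabbit IgG, which recognizes no particular chromatin protein, and 2 input samples without antibody. Input is the digested chromatin before precipitation, and it served as the background for both antibodies. The paper's methods name S2-DRSC cells and another amount of nuclease, and the series text spells the antibody YZ834. These methods also state a larger number of ChIP experiments than the samples per antibody listed here, and which of them a list holds is not given in the sources used here. As the data come from a single cell line in culture, neither myoblasts nor nephrocytes were measured, and peak lists do not show whether these cells transcribe the genes.

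The 4 proteins are known as the irre cell recognition module. SNS and Hibris are the fly counterparts of Nephrin, and Kirre and Roughest are the counterparts of Neph1. At contacts between cells, a Nephrin-like protein on one cell binds a Neph1-like protein on the other. In the embryo, SNS on fusion-competent myoblasts meets Kirre or Roughest on founder cells before myoblasts fuse. In nephrocytes, which filter the hemolymph, SNS and Kirre form a slit diaphragm like that of the vertebrate podocyte. CAP-D3 belongs to Condensin II, a ring-shaped complex of SMC proteins and their partners that compacts chromosomes.

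Each antibody had 1 deposited peak list, in which a peak is a stretch where MACS found more sequenced fragments than in input. The experiments of an antibody are not separate in its list, so no error between experiments can be given for any value below. The score of a peak is −log10 of either the p-value or the q-value from MACS, and which of them is not given. Its lowest value was 2 in both lists. CAP-D3 scores had a median of 9.16 and IgG scores a median of 6.88. Because the depth of the libraries is unknown and the CAP-D3 list is the longer one, how many peaks each list holds at a gene does not compare the strength of binding. Density differed between chromosomes, with 2.03 CAP-D3 and 0.348 IgG peaks per 10 kb on 2R, where sns and hbs lie, and 0.434 and 0.0319 on X, where kirre and rst lie.

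The Nephrin-like genes on 2R held most of the peaks. There were 34 CAP-D3 and 12 IgG peaks at sns (CG33141), 7 and 1 at hbs (CG7449), 3 and 0 at kirre (CG3653), and none of either list at rst (CG4125). The order of the genes by number of peaks was thus not the order of their length, since the annotated spans were 57.6 kb for sns, 30.7 kb for hbs, 394 kb for kirre and 23.4 kb for rst. The span of rst lay wholly within that of kirre, and any peak in it would have counted for both genes. At least 1 CAP-D3 peak was present at 55.7% of all genes and at least 1 IgG peak at 14.2%. Among the 1038 genes of 20 kb or more, to which all 4 belong, the shares were 87.2% and 55.0%. Holding a peak was therefore common for genes of this length, and sns and hbs were set apart from each other by how many they held.

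**Figure D1:**
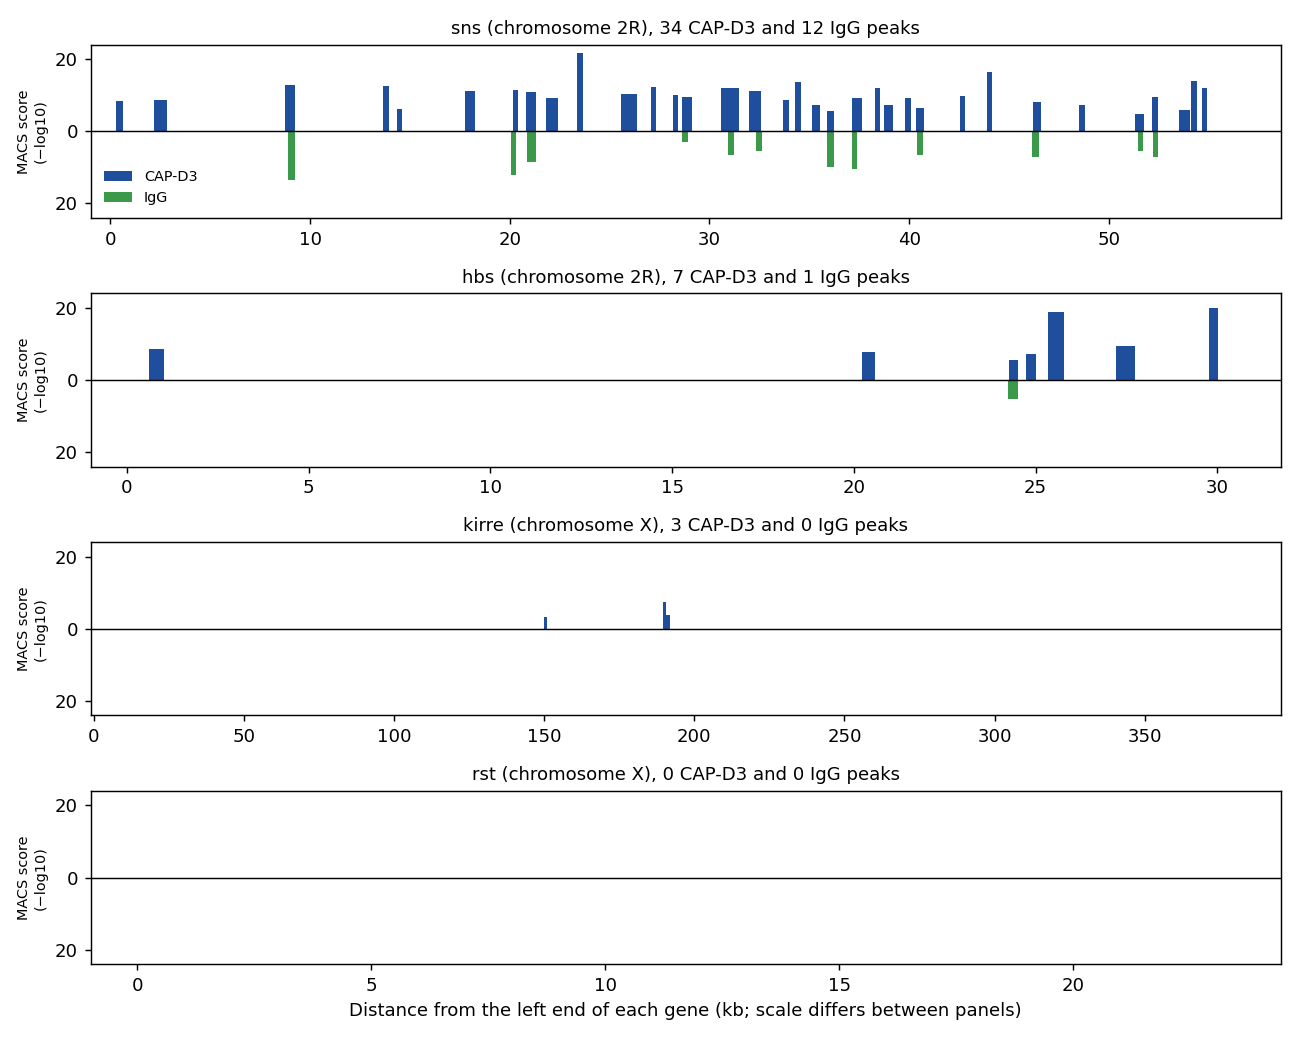
Peaks at sns, hbs, kirre and rst by distance from the left end of each gene (kb, scale differing between panels), with the MACS score (−log10) of CAP-D3 peaks drawn upward and that of IgG peaks downward; narrow peaks are widened to stay visible. CAP-D3 peaks are spread over most of the length of sns (34, beside 12 IgG peaks), lie mainly in the right part of hbs (7 and 1), are 3 in the middle of kirre, and are absent from rst.

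Per length, sns carried 5.7 CAP-D3 peaks per 10 kb, hbs 2.14, kirre 0.0757 and rst 0. For IgG the densities were 2.01 at sns, 0.305 at hbs and 0 at the other two. The density of hbs was close to the mean of 2R for both lists, and that of sns was above it for both. CAP-D3 peaks covered 23.5% of the sns window and 7.98% of 2R, and IgG peaks covered 6.42% of the window and 1.12% of 2R. Among the 1038 genes of 20 kb or more, sns ranked 5 by density of CAP-D3 peaks and also 5 by density of IgG peaks. On 2R alone, with 182 such genes, its ranks were 3 and 2. By number of peaks among all 17684 genes, sns ranked 13 for CAP-D3, a place held by 2 genes, and 8 for IgG. The high rank of sns was hence shared by the control antibody. Whether the IgG signal accounts for part of the CAP-D3 peaks there was not tested.

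**Figure D2:**
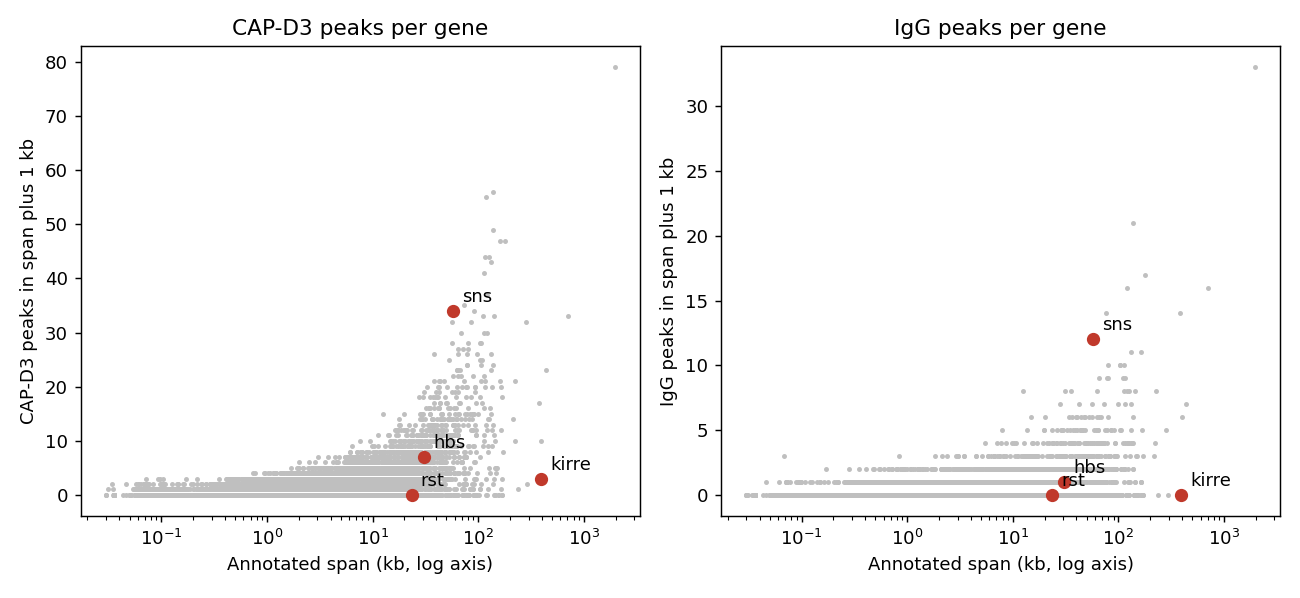
Number of CAP-D3 peaks (left) and IgG peaks (right) in the span plus 1 kb on both sides, against the annotated span in kb (log axis), with 1 grey point per annotated gene and the 4 adhesion genes in red. With 34 and 12 peaks, sns lies near the upper edge for its 57.6 kb in both panels, while kirre, at 394 kb, has 3 and 0.

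Peaks extended over nearly the whole of sns. The first CAP-D3 peak began 0.265 kb inside the left end of the gene, which is the end with the lower coordinate, and the last ended 2.68 kb before the right end, so that 94.9% of the span lay between them. When the span was divided into 3 equal parts, the left part held 6 CAP-D3 peaks and 1 IgG peak, the middle part 15 and 7, and the right part 13 and 4. Both lists were thus sparsest on the left. The median gap between neighboring CAP-D3 peaks was 829 bp at sns and 1837.5 bp on 2R, and 19 of the 33 gaps at sns were shorter than 1000 bp. The longest gap, of 5901 bp, was also there. Strand and exons were not given with the annotation used here, so the transcription start and the exons and introns of these genes are not named.

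**Figure D3:**
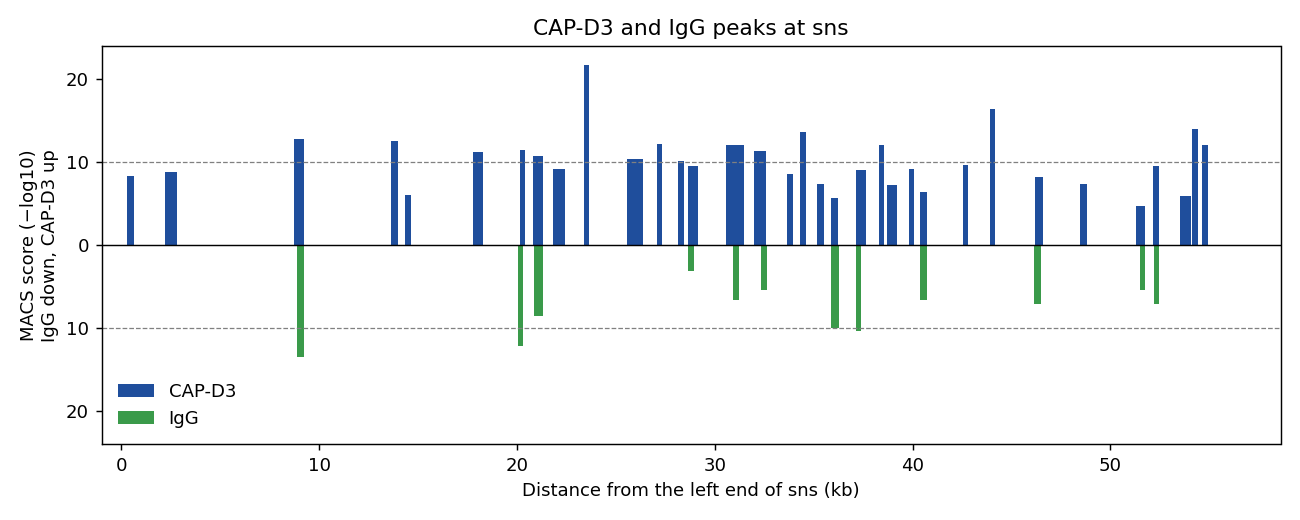
CAP-D3 peaks (blue, upward) and IgG peaks (green, downward) at sns by distance from its left end in kb, with bar height giving the MACS score (−log10) and dashed lines at a score of 10. Each of the 12 IgG peaks lies opposite a CAP-D3 peak, whereas the tallest CAP-D3 peak, with a score of 21.74, has no IgG peak opposite it.

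From the left, the first peaks of sns stood apart from each other. A CAP-D3 peak from 8798754 to 8799144 on 2R had a score of 8.38, and the next, from 8800674 to 8801302, had a score of 8.78. After the longest gap, a CAP-D3 peak from 8807204 to 8807737 had a score of 12.84. It shared 348 bp with the strongest IgG peak of the gene, which ran from 8807390 to 8807740 and had a score of 13.44. These scores come from separate lists, and each is relative to input. No further IgG peak followed for 10783 bp. In this stretch lay CAP-D3 peaks from 8812119 to 8812446 with a score of 12.49, from 8812853 to 8813112 with a score of 6.05, and from 8816257 to 8816767 with a score of 11.17.

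The stretch from about 20 to 30 kb from the left end held the strongest CAP-D3 peak of the family. It opened with a pair of peaks that both antibodies shared. The CAP-D3 peak from 8818625 to 8818892 scored 11.47 and overlapped an IgG peak from 8818524 to 8818807 that scored 12.2. The CAP-D3 peak from 8819310 to 8819808 scored 10.77, and the IgG peak from 8819324 to 8819804 scored 8.58. The latter IgG peak lay wholly within its CAP-D3 peak, over 481 bp. The next 5 CAP-D3 peaks had no IgG counterpart. They began with a peak from 8820285 to 8820908 that had a score of 9.11. The strongest peak followed, from 8821879 to 8822146, with a width of 268 bp and a score of 21.74, which 1.38% of all CAP-D3 peaks exceeded. Its neighbors to the right were from 8824045 to 8824854 with a score of 10.33, from 8825555 to 8825808 with a score of 12.16, and from 8826638 to 8826918 with a score of 10.15. The last of these overlapped CG30350, a short gene annotated within the sns span. A further peak in CG30350, from 8827115 to 8827628, scored 9.59 and contained the weakest IgG peak of the gene, from 8827121 to 8827428 with a score of 3.1.

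The densest stretch came next, with 10 CAP-D3 and 4 IgG midpoints between 30 and 40 kb from the left end. The widest CAP-D3 peak of sns, 885 bp from 8829078 to 8829962, scored 12.04 and contained an IgG peak from 8829431 to 8829707 with a score of 6.67. A CAP-D3 peak from 8830451 to 8831066 scored 11.28 and overlapped an IgG peak from 8830837 to 8831130 with a score of 5.46. Both CAP-D3 peaks thus had the higher score of their pair. Then came 3 CAP-D3 peaks without IgG, from 8832159 to 8832464 with a score of 8.53, from 8832792 to 8833078 with a score of 13.63, and from 8833650 to 8834010 with a score of 7.35. At the next site the order of the scores was the other way round. The CAP-D3 peak from 8834394 to 8834746 scored 5.64 and the IgG peak from 8834393 to 8834752 scored 9.99, which is the largest excess of IgG over CAP-D3 among the 12 pairs. A CAP-D3 peak from 8835623 to 8836122 with a score of 9.08 and an IgG peak from 8835623 to 8835904 with a score of 10.38 had the same left border. The CAP-D3 peaks from 8836765 to 8837034, with a score of 12.12, and from 8837222 to 8837685, with a score of 7.26, had no IgG counterpart, and neither did the peak from 8838293 to 8838587 with a score of 9.17.

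In the right part of sns the peaks became sparser and then ended in a tight group. The CAP-D3 peak from 8838863 to 8839229 scored 6.37 and contained an IgG peak from 8838865 to 8839205 with a score of 6.65. CAP-D3 peaks without IgG followed from 8841018 to 8841303, with a score of 9.7, and from 8842381 to 8842641, with a score of 16.44. The peak from 8844683 to 8845092 scored 8.18 and overlapped an IgG peak from 8844638 to 8844983 that scored 7.15. Thus the second highest score, like the highest, was at a site without IgG. A CAP-D3 peak from 8846980 to 8847319, with a score of 7.37, stood alone. The weakest CAP-D3 peak of the gene, from 8849802 to 8850247 with a score of 4.69, contained an IgG peak from 8849971 to 8850223 with a score of 5.45. The CAP-D3 peak from 8850671 to 8850967 scored 9.53 and contained the last IgG peak, from 8850710 to 8850959, which scored 7.07. The final group was free of IgG peaks and consisted of 3 CAP-D3 peaks separated by gaps of 84 and 216 bp. They extended from 8852026 to 8852546 with a score of 5.9, from 8852631 to 8852923 with a score of 13.96, and from 8853140 to 8853407 with a score of 12.1.

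All 12 IgG peaks of sns overlapped a CAP-D3 peak, and across the IgG list 79.2% did so. Seen from CAP-D3, 12 of the 34 peaks (35.3%) overlapped an IgG peak, and 22 did not. The share was 13.9% for the whole CAP-D3 list and 13.4% on 2R. At hbs 1 of 7 peaks (14.3%) was shared, and at kirre 0 of 3. Of the 12 IgG peaks, 9 lay with at least 90% of their length inside a CAP-D3 peak, and 64.4% of the least covered one was shared. Across all 3124 overlapping pairs of both lists, 78.6% reached that limit. The sites found with IgG at sns therefore lay mostly within CAP-D3 peaks, as in the lists as a whole.

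In 6 of the 12 pairs at sns the IgG peak had the higher score, against 21.5% of all 3124 pairs. At sns the shared CAP-D3 peaks had a median score of 9.56, with a range from 4.69 to 12.84, and the 22 CAP-D3 peaks without IgG had a median of 9.92, with a range from 5.9 to 21.74. The 2 sets overlapped over most of their range, and their medians were close. The 4 highest CAP-D3 scores, 21.74, 16.44, 13.96 and 13.63, were all at peaks without IgG, which were the larger set. In the whole list the shared CAP-D3 peaks had the higher median, at 10.03 against 8.99. Shared peaks were the wider ones, with a median of 472.5 bp against 300.5 bp at sns and of 394 bp against 317 bp in the whole list. A wider peak has more room to overlap another, and the part of width in these shares was not tested.

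**Figure D4:**
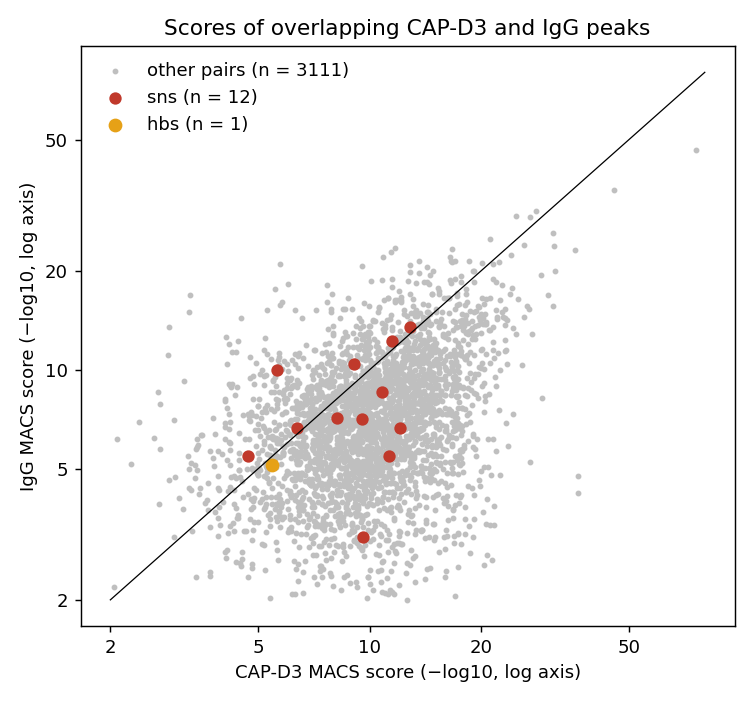
MACS score of each IgG peak (vertical, −log10, log axis) against that of the CAP-D3 peak it overlaps (horizontal, −log10, log axis), for 12 pairs at sns (red), 1 pair at hbs (yellow) and all other pairs (grey); the line marks equal scores. Pairs at sns fall on both sides of the line, 6 above and 6 below, while most other pairs lie below it.

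Most peaks at sns were of moderate score. A score of at least 10 was reached by 16 of its 34 CAP-D3 peaks (47.1%), against 41.9% of the whole CAP-D3 list, and by 3 of its 12 IgG peaks, against 19.9% of the whole IgG list. The number of peaks was therefore large, whereas their scores were near those of the lists. Only 1 CAP-D3 peak and no IgG peak of the gene reached a score of 20. Of the 16 CAP-D3 sites that scored 10 or more, 11 overlapped no deposited IgG peak, and 2 overlapped an IgG peak that also reached that score. If the scores are p-values, this limit is the significance level stated in the paper for its CAP-D3 sites.

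Crowding was also present outside the gene, but unevenly. The 50 kb to the left of the sns window held 19 CAP-D3 and 4 IgG peaks, and the 50 kb to the right held 25 and 8. The means of 2R were 2.03 and 0.348 peaks per 10 kb. From 30 kb left of the gene up to its left end, bins of 10 kb held 3, 1 and 4 CAP-D3 midpoints and no IgG midpoint. On the right, the first peak outside the window lay only 769 bp from it. There a CAP-D3 peak from 8857860 to 8858221, with a score of 7.17, and an IgG peak from 8857860 to 8858124, with a score of 2.74, had the same left border. On the left, the nearest CAP-D3 peak lay 5048 bp from the gene and had a score of 10.54, while the nearest IgG peak lay 36552 bp away. Of the neighbors on the right, RyR, which encodes the ryanodine receptor, a calcium channel of muscle, held 18 CAP-D3 and 7 IgG peaks over its 27734 bp. Its 6.05 CAP-D3 and 2.35 IgG peaks per 10 kb were above the values of sns in both lists. Beyond it, CG8272 held 2 and 1 and DCTN2-p50, a dynactin subunit, 2 and 0. To the left, CG8746 and lncRNA:CR44278 each held 2 CAP-D3 peaks and no IgG peak, and blo held 8 and 4.

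**Figure D5:**
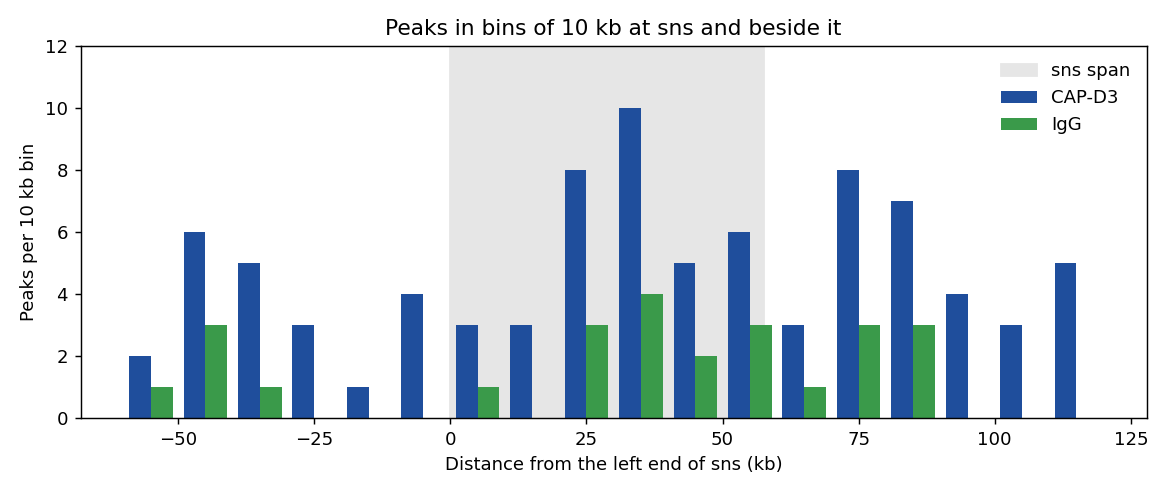
CAP-D3 (blue) and IgG (green) peak midpoints per bin of 10 kb, by distance from the left end of sns in kb, with the annotated span of sns shaded. The highest bin, from 30 to 40 kb, holds 10 CAP-D3 and 4 IgG peaks, and bins to the right of the gene, from 70 to 90 kb, hold 8 and 7 CAP-D3 and 3 IgG peaks each.

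The genes most like sns in both numbers, by the sum of the absolute differences in the number of CAP-D3 and of IgG peaks, were olf413 with 33 and 9, Con with 33 and 8, Pzl with 33 and 16, pk with 35 and 7, and sif with 34 and 5. The sums ranged from 4 to 7 peaks. The CAP-D3 peaks shared with IgG numbered 8 at olf413, 7 at Con, 9 at Pzl, 7 at pk and 3 at sif. At sns they numbered 12. How many can be shared depends on the IgG peaks present, and olf413, Con, pk and sif held fewer of these than sns. The lower numbers at those genes therefore do not set sns apart. Only Pzl held more IgG peaks than sns, 16 against 12, and it had 9 shared CAP-D3 peaks. All of the genes most like sns were longer than it, from 72.7 kb for pk to 709 kb for Pzl. Con encodes connectin, a cell adhesion protein, and pk encodes prickle, which acts in planar cell polarity.

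Hibris is the nearest relative of SNS and acts with it in myoblast fusion. Its gene differed from sns in the arrangement of its peaks as well as in their number. One CAP-D3 peak, from 15011994 to 15012426 on 2R with a score of 8.61, lay near the left end. It was followed by 19185 bp without any peak. The other 6 lay within 9.79 kb, or 31.9% of the span, and ended 0.73 kb before the right end. The right part of hbs was thus dense in CAP-D3 peaks and the rest nearly empty.

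In that group, the strongest hbs peak ran from 15041154 to 15041404 with a score of 19.97, which 2.37% of all CAP-D3 peaks exceeded. The peak from 15036738 to 15037190 had a score of 18.86, which 3.29% exceeded. Both were higher than every CAP-D3 peak of sns but its strongest, and neither overlapped an IgG peak. The others scored lower, at 7.68 from 15031612 to 15031964, 7.19 from 15036144 to 15036410, and 9.36 from 15038616 to 15039132. The peak from 15035655 to 15035904 had the lowest score, 5.45, and shared all of its 250 bp with the only IgG peak of hbs, from 15035627 to 15035907 with a score of 5.12. Hence the single site shared with IgG was the weakest CAP-D3 site of the gene. The nearest CAP-D3 peaks outside the window lay 4003 bp to the left of the gene, with a score of 6.96, and 1442 bp to its right, with a score of 7.53. The 50 kb on each side held 9 CAP-D3 and 1 IgG peaks on the left and 7 and 0 on the right.

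Kirre, the Neph1-like receptor of founder myoblasts and a partner of SNS in nephrocytes, is encoded by one of the longest genes of the annotation, ranking 5 by span. It held only 3 CAP-D3 peaks, all within 41 kb in its middle. They lay on X from 2890676 to 2891096 with a score of 3.18, from 2930306 to 2930616 with a score of 7.47, and from 2931469 to 2931718 with a score of 3.69. The left 150 kb and the right 203 kb of the gene contained no peak of either list. All 3 scores were below the median of the list, since 99.0%, 68.1% and 97.8% of CAP-D3 peaks exceeded them. Each of the 3 also overlapped another gene annotated within the kirre span, CG3526 for the first and CG32793 for the others, so no peak belonged to kirre alone. Of the 22 genes nested in kirre, these were the 2 that held a peak in the span itself. The share of 55.7% of all genes was counted with flanks of 1000 bp, so it does not compare directly with this count.

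The scarcity at kirre was close to that of other long genes on its chromosome. Its 0.0757 CAP-D3 peaks per 10 kb compared with a median of 0.0719 among the 26 genes of 100 kb or more on X, of which 13 had fewer per 10 kb. Only 3 of these 26 genes held an IgG peak. The nearest CAP-D3 peaks outside kirre lay 8995 bp to the left, with a score of 8.79, and 25247 bp to the right, with a score of 5.48. The nearest IgG peaks lay 209984 bp to the left and 717635 bp to the right.

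Roughest, the Neph1-like protein that acts redundantly with Kirre in myoblast fusion and sorts cells in the pupal eye, is encoded within the kirre span by a gene without any peak. The nearest CAP-D3 peak was the rightmost peak of kirre, 18681 bp to the left, and to the right none lay within 185945 bp. Among the 210 genes of 20 kb or more on X, 50.5% held at least 1 CAP-D3 peak, and rst was among the 104 that held none. Genes of that length without a CAP-D3 peak were fewer on 2R, at 6 of 182. Within the family, the position of a gene on 2R or X and its membership in the Nephrin-like or Neph1-like pair therefore cannot be told apart. Because the lists hold only stretches above the score limit, the absence of a peak does not show that CAP-D3 is absent from rst.

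Peaks were also counted at 25 genes whose proteins act beside the 4 receptors, in myoblast fusion or in nephrocytes. At least 1 CAP-D3 peak was found at 18 of them (72.0%, against the 55.7% of all genes) and at least 1 IgG peak at 10 of the 25 (against 14.2% of all genes). These genes were longer than most, with a median span of 5.62 kb against 1.71 kb for all genes, and 4 of the 25 reached 20 kb (16.0%, against 5.87%). Gene length thus moved with these shares, and its part in them was not tested. The median number of CAP-D3 peaks was 2 in the list and 1 over all genes.

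Among proteins that link the receptors to the cytoskeleton, rols, the founder cell adaptor that binds Kirre, held 8 CAP-D3 and 3 IgG peaks over 56.6 kb, a span close to that of sns. Its density of 1.36 CAP-D3 peaks per 10 kb was below the 5.7 of sns. The exchange factor gene siz (also called loner) held 11 and 1, with a highest CAP-D3 score of 17.05, and mbc, which encodes an activator of Rac, held 4 and 1. The junction protein gene pyd, the fly counterpart of ZO-1 and a component of the nephrocyte diaphragm, held 7 and 2 over 105 kb. No gene of this set approached sns in the number of peaks.

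The regulators of actin branching are shorter genes. WASp had 4 CAP-D3 peaks, Abi 3, Vrp1 and Hem 2 each, and SCAR 0, against a median of 1 over all genes. Among them only Hem had an IgG peak. Per 10 kb, the CAP-D3 peaks were 4.2 at WASp, 5.82 at Abi, 3.42 at Hem, 1.08 at Vrp1 and 0 at SCAR. The first 3 of these densities were above the mean of each chromosome arm, the highest of which was 2.16 on 3R. Each of the 3 rests on only 2 to 4 peaks. The density of Vrp1 was below the 2.03 of 2R, where it lies, and that of SCAR was below the 1.74 of 2L. The myoblast protein gene blow was unlike the others, with more IgG peaks than CAP-D3 peaks, 3 against 2. Both of its CAP-D3 peaks overlapped an IgG peak, and splitting of peaks by MACS can affect such small numbers. The adaptor genes dock and cindr held 2 CAP-D3 peaks and 1 IgG peak each, and the IgG peak of cindr was not on a CAP-D3 peak. The adaptor gene drk and the Rac regulator gene Ced-12 held 2 CAP-D3 peaks each and no IgG peak, and Rac1 held 1. No peak of either list was found at SCAR, Rac2, Crk, Arf51F (Arf6 in the annotation) or sing.

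Of the transcription factors, Mef2, which activates muscle genes, held 11 CAP-D3 peaks and 1 IgG peak, and lmd, which is required in fusion-competent myoblasts and for sns expression there, held 4 and 0. Klf15, a nephrocyte regulator, held none. Among genes for nephrocyte uptake and diaphragm proteins, Cubn, which encodes cubilin, held 2 CAP-D3 peaks and its partner Amnionless 2 and 1, whereas Mec2 held none. Of the 4 genes of this set on X, which are Cubn, Klf15, Mec2 and sing, only Cubn held a peak. CAP-D3 peaks were sparse on X, at 0.434 per 10 kb, and 50.5% of its genes of 20 kb or more held at least 1. The 4 genes were shorter than that, from 1.03 kb for Klf15 to 12.6 kb for Cubn. Per 10 kb, 1 of the 25 genes exceeded sns in CAP-D3 peaks, namely Abi with 5.82, from 3 peaks in a gene of 3.16 kb.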

How the data were processed

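The authors performed ChIP for CAP-D3 and IgG and called peaks against input. Their deposited lists give the position, name and score of each peak, and the score is −log10 of either the p-value or the q-value from MACS. Which of them was written, and how the experiments entered a list, are not given in the sources used here. The submitters' processing notes name CASAVA 1.4, Trim Galore 0.3.7, cutadapt 1.8, FastQC 0.11.3, Bowtie 1.0.0 and MACS2 2.0.9. The notes name no genome build. Sequence names and the last peaks of each arm fitted Release 6 plus ISO1 MT, the assembly of the RefSeq gene table, whose coordinates are not printed. Starts were converted to count from 1. Overlap meant at least 1 bp, and density was the number of peaks per 10 kb of gene span plus both 1000 bp flanks.

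Every deposited peak was used, including scores below 10. The paper states its sites at a p-value, which corresponds to a score of 10 only if the scores are p-values. This limit was run here as an alternative and leaves 16 of the 34 CAP-D3 peaks at sns. It leaves 9254 peaks in the whole CAP-D3 list, which is not the number of sites that the paper gives. The genes, the list of 25 partner genes and the comparisons were chosen with earlier results of these data known. Named genes are the members, partners, nested genes with peaks, 3 neighbors of sns on each side, the 5 genes with the most IgG peaks, and the 5 most like sns. No test was run, as each antibody has 1 list. Interval counting was tested on simulated data and matched a count made base by base in 20 of 20 runs. The motif search, exons and introns planned earlier were not analysed here. Python 3.11.15, numpy 2.4.6, pandas 2.3.3 and matplotlib 3.10.9 were used.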

Additional observations from a re-analysis of the deposited data

How the results depend on the processing

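Of 48 alternatives, 19 concerned counts of 0 that stayed at 0, which nearly all of them could not have moved. Of those on counts above 0, 15 left the count within 1.5 times the value reported, and 14 did not. Counts fell with the score threshold, as its construction requires. With a score of at least 10, sns had 16 CAP-D3 and 3 IgG peaks, hbs 2 and 0, and kirre 0 CAP-D3 peaks. With at least 20, sns had 1 and 0, hbs 0 and 0, and kirre 0. With a score of at least 10 in both lists, 2 CAP-D3 peaks at sns and 0 at hbs overlapped an IgG peak. A flank of 5000 bp raised the IgG peaks of hbs to 2. Without peaks that overlap another gene, kirre had 0. At sns, leaving out the flanks, widening them, leaving out peaks in CG30350 and requiring an overlap of 50% of the shorter peak kept each count within 1.5 times. No paired analysis was possible because the experiments of an antibody are not separate in its single list, and for the same reason no replicate could be left out. Depth is unknown, which limits comparisons between the lists, and peak splitting by MACS affects numbers of peaks.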

Other observations

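The genes with the most IgG peaks were longer than sns and rich in CAP-D3 peaks as well. They were Myo81F with 33 IgG and 79 CAP-D3 peaks, dpy with 21 and 56, Rbp6 with 17 and 47, and Pzl and jing with 16 IgG peaks each, beside 33 and 55 CAP-D3 peaks. Their spans ranged from 120 kb for jing to 1970 kb for Myo81F, against 57.6 kb for sns. Of their CAP-D3 peaks, 23 at Myo81F, 20 at dpy, 11 at Rbp6, 9 at Pzl and 12 at jing overlapped an IgG peak. In dpy, which encodes Dumpy, a giant protein of the apical matrix that anchors the wing to the cuticle, 20 of 56 CAP-D3 peaks were thus shared, a proportion near the 12 of 34 at sns. The proportions at Myo81F, Rbp6, Pzl and jing were lower, but all were above the 13.9% of the whole CAP-D3 list. A share above that of the whole list was thus not particular to sns.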
